A study of Homo sapiens with 8 samples.

Results

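Aldehyde dehydrogenases oxidise aldehydes to carboxylic acids, and the genes described here are 10 members of that family, ALDH1A1, ALDH1A3, ALDH1B1, ALDH1L2, ALDH2, ALDH3A1, ALDH3A2, ALDH3B1, ALDH3B2 and ALDH7A1. They are 10 of the 56638 gene symbols in each count table, and 9 further members of the family served for comparison. The 10 genes were chosen by name with results of both knockdowns known, because ALDH1A3 was lower after the stable knockdown of ETS1 and ALDH3B1 was higher after both knockdowns. Their fold changes are therefore given as a description, without p-values. RNA was sequenced from SCC25 cells, an established line of head and neck squamous cell carcinoma, after loss of the transcription factor ETS1. There were 4 groups of 2 replicates. In siRNA control and ETS1 siRNA the cells were transiently transfected with a non-targeting siRNA or with a pool of siRNAs against ETS1. In shCON and shETS1 the cells carried a lentiviral hairpin and had been selected with puromycin, with a non-targeting hairpin in shCON and a single ETS1 hairpin, the third of the study's series, in shETS1. All groups were otherwise the same cell line in the same medium with serum and hydrocortisone.

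The family works in several compartments of the cell. ALDH1A1 and ALDH1A3 are cytosolic enzymes that make retinoic acid, the ligand of the retinoic acid receptors, from retinaldehyde, and their activity is widely used to enrich stem-like cells from carcinomas. ALDH2, ALDH1B1 and ALDH1L2 are mitochondrial, and the ALDH3 enzymes act mainly on fatty and aromatic aldehydes. ETS1 binds DNA through a core of the letters GGAA.

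ETS1, the targeted gene, was low in every knockdown library. It stood at 288 and 248 CPM (the count scaled to a common library size) in the siRNA control libraries against 17.4 and 13.2 after ETS1 siRNA, and at 82.2 and 72.0 CPM in shCON against 9.75 and 11.1 in shETS1. Library totals ranged from 15954616 to 25953213 counts. Of all counts, the structural non-polyadenylated RNAs RN7SK, RN7SL1, RN7SL2, RPPH1 and RMRP together made up at most 0.00339% in the siRNA libraries. Their share was 5.61% and 6.63% in shCON and 12.3% and 9.64% in shETS1. Other RNAs of this kind were not summed. Whether this share plays a part in any shRNA difference below was not tested. Each table was scaled on its own and this share differed between the tables, so levels of the siRNA libraries cannot be set directly against those of the stable lines. A difference in preparation is not described in the sources used here. The 5 squamous epithelial markers KRT5, KRT14, KRT17, TP63 and DSG3 were detected in all libraries. Their summed level was 10760 and 14330 CPM in siRNA control against 19790 and 17110 after ETS1 siRNA. It was 11440 and 11640 CPM in shCON against 19440 and 19420 in shETS1, and the part of this difference in the results below was not tested. None of the 5 was called after siRNA, where 3.41% of all genes were, but 3 had an unadjusted p under 0.05 in edgeR. The log2 fold changes there were 0.78 ± 0.195 for KRT14, 0.47 ± 0.15 for KRT5 and 0.44 ± 0.13 for KRT17. DSG3 was at 0.34 ± 0.23 and TP63 at -0.10 ± 0.14. After shRNA KRT5, KRT14, KRT17 and DSG3 were called higher and TP63, the basal epithelial transcription factor, was called lower at -0.40 ± 0.092. The 7 markers of immune, endothelial, melanocytic and liver cells summed to between 0.634 and 2.09 CPM, and PECAM1 had no count in any library. In bulk RNA of this kind, fewer cells expressing a gene and less RNA per cell cannot be told apart.

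The sequences just before the start sites are shown for ALDH1A3, ALDH1A1 and ALDH3B1, which had large called differences, and for ALDH7A1, whose window holds the longer ETS motif. A promoter sequence from RefSeq on build GRCh38.p14 was matched for 6 of the 10 members, in 8 windows of the 250 bases before an annotated start. No sequence is shown for ALDH1L2, ALDH2, ALDH3A1 and ALDH3B2. Each is printed 5′ to 3′ on the strand of its gene, and capitals mark GGAA or its reverse complement TTCC, extended to CCGGAA or TTCCGG where those letters occur.
ALDH1A3, chr15:100879581-100879830, plus strand: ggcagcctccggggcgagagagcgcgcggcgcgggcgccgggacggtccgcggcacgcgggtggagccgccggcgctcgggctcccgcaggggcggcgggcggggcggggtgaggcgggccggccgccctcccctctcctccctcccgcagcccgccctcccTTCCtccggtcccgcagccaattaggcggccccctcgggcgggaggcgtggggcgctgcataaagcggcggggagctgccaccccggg
ALDH1A1, chr9:72953054-72953303, minus strand: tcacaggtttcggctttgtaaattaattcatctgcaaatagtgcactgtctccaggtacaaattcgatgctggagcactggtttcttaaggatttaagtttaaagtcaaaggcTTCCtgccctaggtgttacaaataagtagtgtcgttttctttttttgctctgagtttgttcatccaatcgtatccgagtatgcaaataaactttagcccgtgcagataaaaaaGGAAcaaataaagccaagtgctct
ALDH3B1, chr11:68008297-68008546, plus strand: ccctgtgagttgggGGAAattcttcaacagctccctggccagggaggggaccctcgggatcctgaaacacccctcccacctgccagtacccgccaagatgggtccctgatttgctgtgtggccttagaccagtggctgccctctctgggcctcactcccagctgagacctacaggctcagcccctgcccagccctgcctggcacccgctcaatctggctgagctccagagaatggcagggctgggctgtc
ALDH3B1, chr11:68010077-68010326, plus strand: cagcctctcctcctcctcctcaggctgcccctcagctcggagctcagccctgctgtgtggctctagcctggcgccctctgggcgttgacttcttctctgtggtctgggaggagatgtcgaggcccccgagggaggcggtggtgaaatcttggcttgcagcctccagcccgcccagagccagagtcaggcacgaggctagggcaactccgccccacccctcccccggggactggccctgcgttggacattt
ALDH7A1, chr5:126595220-126595469, minus strand: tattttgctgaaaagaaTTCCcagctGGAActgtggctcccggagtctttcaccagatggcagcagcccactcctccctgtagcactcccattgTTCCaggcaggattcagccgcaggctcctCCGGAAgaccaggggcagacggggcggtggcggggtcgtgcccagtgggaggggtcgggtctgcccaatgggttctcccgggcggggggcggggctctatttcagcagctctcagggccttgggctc
The ALDH1A3 window held 1 TTCC, with its first base 88 bases before the start, and was 82.4% G or C. The ALDH1A1 window was 38.4% G or C and held 2 matches. ALDH3B1 has a pair of annotated starts, and the first window held 1 GGAA whereas the second held none. GGAA or TTCC was found in 7 of the 8 windows of members, against 92.7% of all 35116 windows of the same length. CCGGAA or TTCCGG was found in 1 of the 8, that of ALDH7A1, against 14.5% of all windows. These matches describe the letters only, and binding was not measured in these data.

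After the siRNA knockdown, 8 of the 10 members had enough reads to be tested, and 2 of them passed an adjusted p (Benjamini-Hochberg) under 0.1 in edgeR's quasi-likelihood test and are termed called, ALDH3B1 higher and ALDH1A3 lower. Across all 14742 genes tested, 3.41% were called. After the shRNA knockdown all 10 were tested and 8 were called, 5 higher and 3 lower, against 60.6% of the 16481 genes tested. Since both contrasts were used in choosing the genes, nothing is read from these shares. The median log2 fold change of the members was 0.10 over the 8 tested after siRNA, where that of all genes was 0.00182, and 0.35 over the 10 after shRNA, where that of all genes was 0.000664. Of the 8 members tested in both knockdowns, 6 had fold changes of the same sign, and ALDH1B1 and ALDH7A1 had opposite signs. The same share was not worked out over all genes. Some of these fold changes, such as those of ALDH2 and ALDH3A2 after siRNA, were smaller than their SE, so nothing is read from the signs. With library size alone in place of TMM scaling, the median of all genes after shRNA moved to -0.12, so that shRNA values lay lower by about that amount, and 36.6% of all calls were higher in place of 49.1%. Replicates are labelled as such, and p-values used for the calls measure only the spread between libraries, 2 a group. For each gene that spread was estimated with help from the other genes tested.

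**Figure D1:**
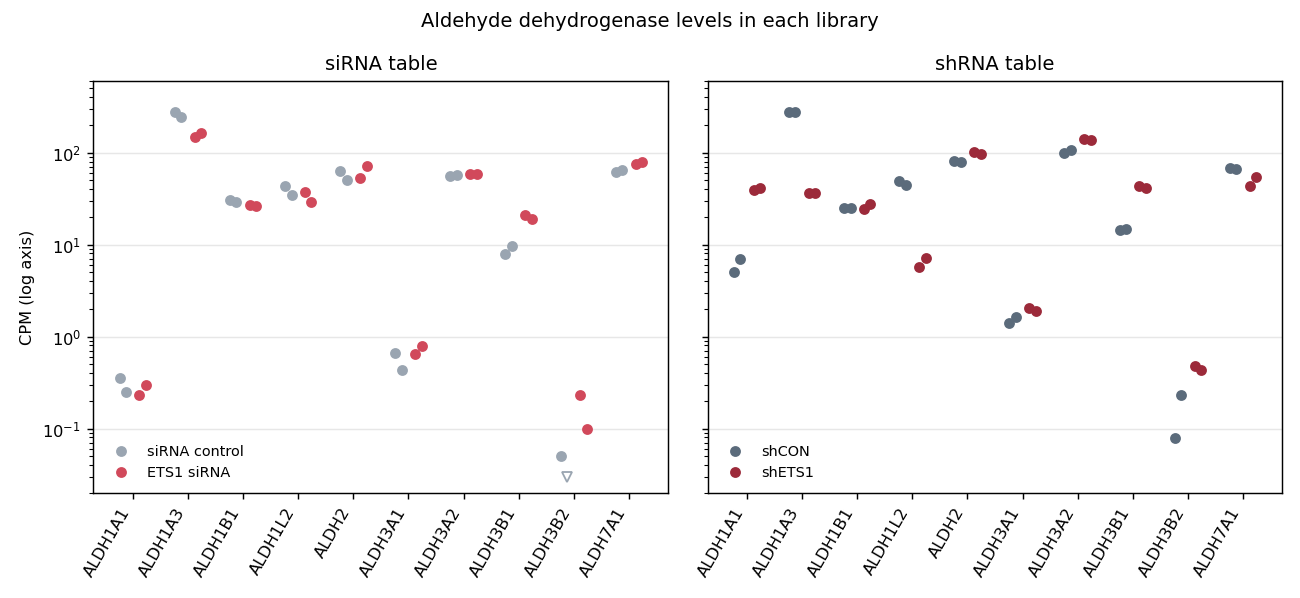
Level of each gene in each library in CPM on a log axis, with 1 point a library, the siRNA table on the left and the shRNA table on the right; an open triangle marks a library with no count. The ALDH1A3 points of shETS1, at 36.8 and 36.0 CPM, lie far below those of shCON, at 276 and 278, whereas the ALDH1A1 points rise from 5.05 and 6.97 to 39.1 and 40.7.

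Of the retinaldehyde dehydrogenases, ALDH1A3 was lower in both knockdowns. The gene lies at chr15:101417919-101456831 on the plus strand of GRCh37, and an annotated antisense transcript, ALDH1A3-AS1, overlaps its exons. Its level was 279 and 245.5 CPM in siRNA control against 149 and 165 in ETS1 siRNA, and 276 and 278 CPM in shCON against 36.8 and 36.0 in shETS1. The groups did not overlap in either table. The log2 fold change was -0.74 ± 0.14 (SE, n = 2 against 2) after siRNA, or 1.67-fold lower, and -2.93 ± 0.077 after shRNA, or 7.61-fold lower. Without siRNA control replicate 1 the siRNA value was -0.64 and was not called, while the shRNA value lay between -3.05 and -2.91 and was called in all 13 alternatives. The difference between the knockdowns, the shRNA fold change minus the siRNA fold change in one fit of all 8 libraries, is called the interaction. For ALDH1A3 it was -2.21 ± 0.14 and was called. In that fit 34.8% of the 17190 genes tested were called, and among the 9 members tested 5 were called, 2 with a positive and 3 with a negative difference. The kind of knockdown cannot be told apart here from any difference in the preparation of the libraries or from the depth of ETS1 loss. That loss was 17.6-fold after siRNA and 7.40-fold after shRNA.

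ALDH1A1, the other cytosolic retinaldehyde dehydrogenase of the set, moved the opposite way in the stable lines. It lies at chr9:75515587-75695358 on the minus strand of GRCh37. The siRNA libraries held only 7 and 4 counts in the control and 4 and 6 in ETS1 siRNA, too few to be tested. In shCON it had 127 and 181 counts, or 5.05 and 6.97 CPM, and in shETS1 it had 899 and 1029 counts, or 39.1 and 40.7 CPM. The shETS1 libraries were thus both above the shCON libraries, with a log2 fold change of 2.73 ± 0.12, or 6.63-fold. It was called in all 13 alternatives, with values between 2.51 and 2.98. The interaction was 2.91 ± 0.58 and was called, although its siRNA side rests on 4 to 7 counts a library.

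The make-up of the family therefore differed between the libraries. ALDH1A3 supplied 51.5% and 49.9% of the 10 genes' counts in siRNA control and 35.2% and 36.8% in ETS1 siRNA. In the stable lines it supplied 44.6% and 44.5% in shCON and 8.41% and 8.16% in shETS1. These shares are of between 7290 and 16253 counts a library and also depend on gene length, since a longer transcript yields more reads. Among the counts of ALDH1A1 and ALDH1A3 together, ALDH1A1 supplied 1.79% and 2.44% in shCON and 51.5% and 53.1% in shETS1, and at most 0.178% in any siRNA library. The summed level of the 10 genes was 619 and 626 CPM in shCON and 438 and 442 in shETS1. Without ALDH1A3 the order of the stable lines turned, with 343 and 347 CPM in shCON and 401 and 406 in shETS1. In the siRNA table the sum was 542 and 492 CPM in the control against 424 and 449.5 with ETS1 siRNA. Without ALDH1A3 it was 263 and 247 CPM against 274 and 284.

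**Figure D2:**
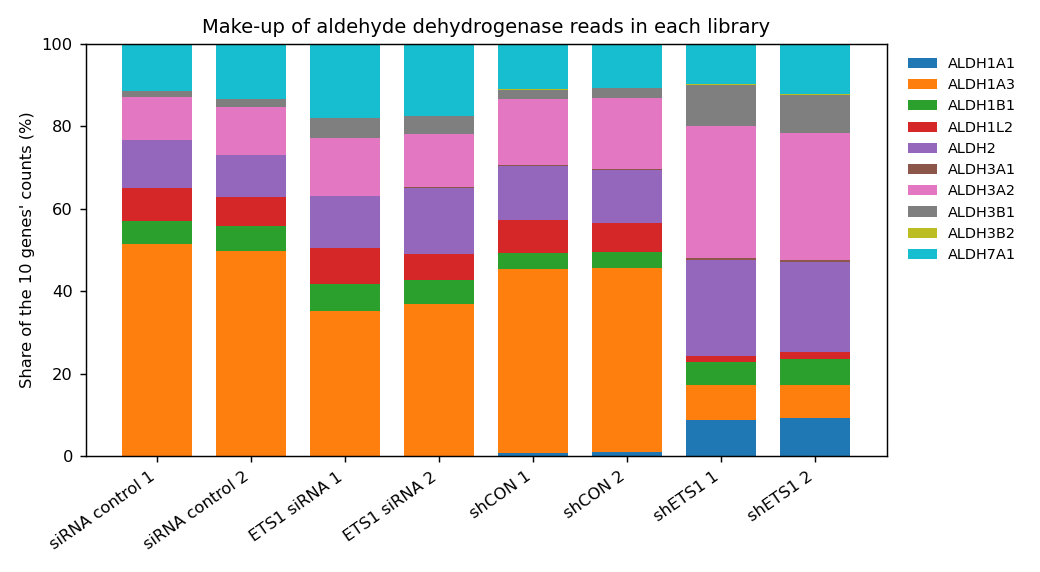
Share of the 10 genes' summed counts, in percent, that each gene supplied in each of the 8 libraries. ALDH1A3 makes up between 44.5% and 51.5% of the bar in the control libraries and 8.16% to 8.41% in shETS1, where ALDH1A1 appears with 8.94% and 9.22%.

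Per length of merged exons, in CPM per kilobase (RPKM), ALDH1A3 had the highest mean level of the 10 in siRNA control, at 49.2 RPKM, in ETS1 siRNA, at 29.5, and in shCON, at 52.0. The second gene was ALDH1B1 at 9.56 RPKM in siRNA control and 8.59 after ETS1 siRNA, and ALDH2 at 8.27 in shCON. In shETS1 the order was ALDH1A1 at 14.1 RPKM, ALDH2 at 10.2, ALDH3A2 at 8.998, ALDH1B1 at 8.37, ALDH1A3 at 6.83 and ALDH3B1 at 6.39. Of these neighbours, ALDH3A2 and ALDH1B1 overlapped between their libraries. The lowest in every group was ALDH3B2, at no more than 0.127 RPKM, below ALDH3A1 and, in the siRNA libraries, ALDH1A1. Other neighbours whose libraries overlapped were ALDH1L2 with ALDH3A2 and ALDH3A1 with ALDH1A1 in siRNA control, ALDH1L2 with ALDH3A2 and with ALDH3B1 in ETS1 siRNA, and ALDH3B1 with ALDH1A1 in shCON. The order depended on the length used. With the length of the canonical transcript, ALDH1A3 stayed first in the same 3 groups, at 75.6, 45.3 and 79.9 RPKM, but shETS1 was led by ALDH3A2 at 37.2, then ALDH1A1 at 19.1, ALDH3B1 at 15.1 and ALDH1A3 at 10.5.

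Of the ALDH3 genes, ALDH3B1, whose enzyme oxidises aldehydes derived from lipids, was higher in both knockdowns. It lies at chr11:67776048-67796749 on the plus strand of GRCh37. Its level was 7.85 and 9.53 CPM in siRNA control against 21.2 and 18.8 in ETS1 siRNA, and 14.5 and 14.9 CPM in shCON against 43.8 and 40.9 in shETS1. All knockdown libraries lay above the controls of their table. The log2 fold change was 1.20 ± 0.17 after siRNA, or 2.30-fold, and 1.52 ± 0.093 after shRNA, or 2.87-fold. Without siRNA control replicate 1 the siRNA value was 1.07 and was not called, whereas the shRNA call held in all 13 alternatives. The interaction, 0.30 ± 0.18, was not called, which does not show that the knockdowns acted alike on this gene.

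ALDH3B2, the neighbouring paralogue at chr11:67429626-67448695 on the minus strand of GRCh37, was at the edge of detection. It had 1 and 0 counts in siRNA control against 4 and 2 after ETS1 siRNA, and 2 and 6 in shCON against 11 and 11 in shETS1. Its log2 fold change after shRNA, 1.52 ± 0.61, was called but depends on the prior count of the fit, and it was lost with DESeq2 and without shCON replicate 1, shETS1 replicate 1 or shETS1 replicate 2. Paralogues can share reads, and how reads with several matches were handled is not stated.

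ALDH3A2, the fatty aldehyde dehydrogenase of the endoplasmic reticulum that is deficient in Sjögren-Larsson syndrome, had 56.2 and 57.3 CPM in siRNA control and 58.9 and 58.7 in ETS1 siRNA. In the stable lines it had 99.2 and 107 CPM in shCON against 140 and 136 in shETS1. The siRNA log2 fold change of 0.05 ± 0.11 was not called, and the shRNA value of 0.42 ± 0.073, or 1.34-fold higher, was called in all 13 alternatives. The interaction of 0.35 ± 0.13 was called but lost its call in 11 of 15 alternatives. A small nucleolar RNA of the symbol SNORA31 is annotated within ALDH3A2 on the same strand. The counts under that symbol had a log2 fold change of -0.39 ± 0.16 after shRNA that was called. Whether they come from this place alone was not checked. ALDH3A1, abundant in cornea as a crystallin, was low, at 0.654 and 0.436 CPM in siRNA control against 0.639 and 0.787 after ETS1 siRNA, and at 1.39 and 1.62 CPM in shCON against 2.04 and 1.90 in shETS1. Its log2 fold changes were 0.37 ± 0.44 with siRNA and 0.39 ± 0.25 with shRNA, and neither was called.

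**Figure D3:**
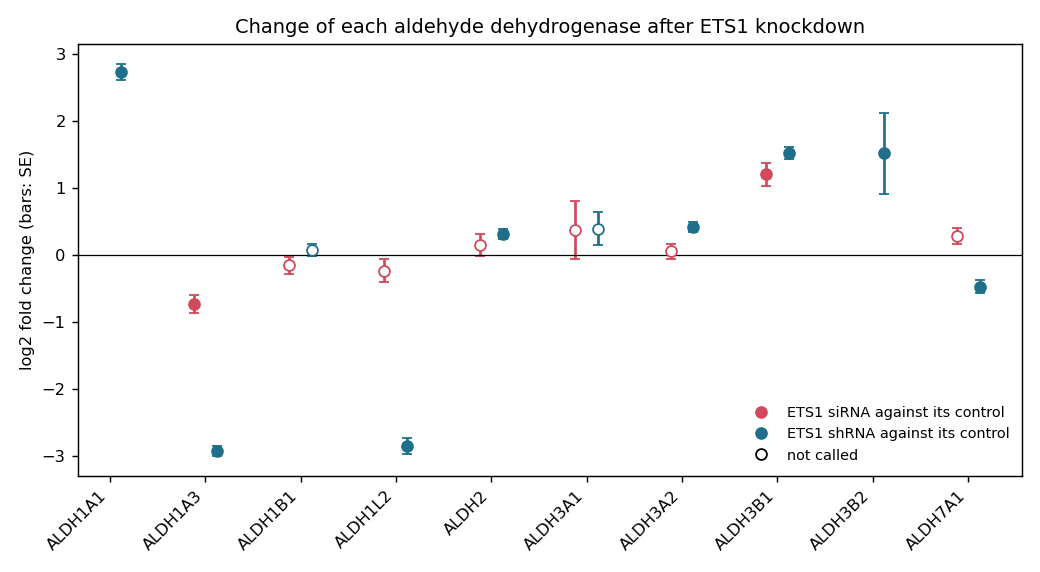
Log2 fold change of each gene against its own control after siRNA and after shRNA, with bars for the SE; filled points passed an adjusted p under 0.1, open points did not, and a missing point was not tested. ALDH3B1 is filled and above 0 in both knockdowns, at 1.20 and 1.52, and ALDH1A3 is filled and below 0 in both, at -0.74 and -2.93.

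Of the mitochondrial members, ALDH1L2 fell in the stable line. Its enzyme oxidises 10-formyltetrahydrofolate and thereby makes NADPH. It lies at chr12:105413562-105501421 on the minus strand of GRCh37. Its level was 43.3 and 34.4 CPM in siRNA control against 37.1 and 28.9 in ETS1 siRNA, which overlapped. In shCON it was 49.5 and 44.2 CPM and in shETS1 5.66 and 7.21, with no overlap. The siRNA log2 fold change of -0.24 ± 0.17 was not called and ranged from -0.42 to -0.06 over the alternatives. The shRNA value was -2.86 ± 0.12, or 7.25-fold lower, and was called in all 13 alternatives, between -3.05 and -2.70. The interaction was -2.64 ± 0.23 and was called. Exons of KIAA1033 and C12orf45 overlap this gene on the opposite strand, and whether the counting used strand is not stated. KIAA1033, which starts 319 bases away, had a log2 fold change of 0.36 ± 0.072 after shRNA that was called, opposite in sign to that of ALDH1L2, and C12orf45 had 0.07 ± 0.11, which was not called.

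ALDH2, the enzyme that clears acetaldehyde after alcohol intake, had 62.3 and 50.6 CPM in siRNA control against 53.4 and 71.3 after ETS1 siRNA, and 80.8 and 80.0 CPM in shCON against 102 and 96.6 in shETS1. The siRNA groups overlapped, and the log2 fold change of 0.14 ± 0.17 was not called. After shRNA it was 0.31 ± 0.073, or 1.24-fold higher, and was called, but not in a fit of all 8 libraries together, where it was 0.29. Its close relative ALDH1B1 lay between 24.5 and 30.4 CPM in all 8 libraries, with log2 fold changes of -0.15 ± 0.13 and 0.07 ± 0.096 that were not called. ALDH7A1, an enzyme of lysine breakdown, had 61.7 and 65.2 CPM in siRNA control against 75.7 and 78.8 in ETS1 siRNA. In the stable lines it had 68.3 and 67.1 CPM in shCON against 43.0 and 54.0 in shETS1. The siRNA groups did not overlap, yet the log2 fold change of 0.28 ± 0.12 was not called. The shRNA value of -0.48 ± 0.094, or 1.39-fold lower, was called in all 13 alternatives, between -0.66 and -0.33, and the interaction was -0.78 ± 0.17 and was called.

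Among the 9 further aldehyde dehydrogenases, 8 were tested in each knockdown, and none of the 8 was called after siRNA in edgeR, against 3.41% of all genes. The number at an unadjusted p under 0.05 was 1, DESeq2 called 0, and with all 8 libraries in one fit 1 was called. After shRNA 4 were higher and 2 lower, or 75% called against 60.6% of all genes. ALDH1A2, the remaining retinaldehyde dehydrogenase, rose by a log2 fold change of 2.11 ± 0.31, from 0.556 and 0.462 CPM in shCON to 2.18 and 2.26 in shETS1, a low level in both. ALDH6A1, of valine breakdown, rose by 1.08 ± 0.089, from 20.3 and 22.3 CPM to 45.7 and 44.7. ALDH5A1, succinic semialdehyde dehydrogenase, and ALDH1L1, the cytosolic counterpart of ALDH1L2, had 0.31 ± 0.10 and 0.41 ± 0.20, and both calls were lost with library size alone, with DESeq2 and with all 8 libraries in one fit. ALDH5A1 was 0.18 with library size alone and also lost its call without shETS1 replicate 2, at 0.22. The groups of ALDH1L1 overlapped, with 2.90 and 4.39 CPM in shCON against 5.53 and 4.24 in shETS1. Its call was also lost without shCON replicate 1, at 0.14, and without shETS1 replicate 1, at 0.21. The same held with at least 10 counts in every library, with a replicate block and at an adjusted p under 0.05. ALDH9A1, of carnitine synthesis, fell by 0.54 ± 0.082 on the log2 scale and ALDH4A1, of proline breakdown, fell by 0.45 ± 0.10. ALDH16A1 and ALDH18A1 were not called, with -0.15 ± 0.085 and 0.06 ± 0.070, and ALDH8A1 was not tested.

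The genes around the retinaldehyde dehydrogenases were followed in a list of 22 genes that carry retinol and retinoic acid, convert or degrade them, or respond to them. After siRNA 3 of the 15 tested were called, all higher, against 3.41% of all genes, and the median log2 fold change was 0.57 where that of all genes was 0.00182. CRABP2, which carries retinoic acid to the nucleus, rose from 38.8 and 55.9 CPM to 72.5 and 86.3, a log2 fold change of 0.75 ± 0.18. TGM2, a transglutaminase induced by retinoic acid, rose by 0.67 ± 0.12. Without siRNA control replicate 1 none of the list was called, with CRABP2 at 0.51 and TGM2 at 0.64, and the call of CRABP2 was also lost without ETS1 siRNA replicate 2, at 0.61, and with library size alone, at 0.73. Of the 2 further genes of highest level, RXRA had 0.61 ± 0.18 and RDH11 -0.22 ± 0.13, neither called.

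After shRNA 6 of 17 retinoid genes were higher and 7 lower, or 76.5% called against 60.6% of all genes, with a median of 0.04. CRABP2 fell from 47.0 and 51.7 CPM in shCON to 14.2 and 12.7 in shETS1, a log2 fold change of -1.88 ± 0.098, and its interaction of -2.64 ± 0.23 was called. RARRES3, a gene induced by retinoic acid, fell by 1.75 ± 0.18 on the log2 scale, and CYP26B1, which degrades retinoic acid, fell by 1.40 ± 0.14. TGM2, also induced by retinoic acid, went the other way and rose by 1.31 ± 0.12, which was called. SDR16C5, a retinol dehydrogenase, rose by 1.40 ± 0.085, from 21.5 and 21.7 CPM to 59.1 and 55.2. RDH11, which reduces retinaldehyde, rose by 0.64 ± 0.071, and DHRS3, which also does so, fell by 0.34 ± 0.074. The call of DHRS3 was lost with all 8 libraries in one fit, where it was -0.36. In the interaction 4 of 17 were higher and 10 lower, against 34.8% of all genes called, with a median of -0.58 where that of all genes was -0.02.

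ALDH1L2 belongs with the enzymes of folate one-carbon metabolism, of which 14 others were followed. None of the 14 was called after siRNA in edgeR, against 3.41% of all genes, with a median of 0.05. The number at an unadjusted p under 0.05 was 2, DESeq2 called 0, and 2 were called with all 8 libraries in one fit. After shRNA 3 were higher and 6 lower, or 64.3% called, near the 60.6% of all genes, with a median of -0.16. Thymidylate synthase, TYMS, fell by 1.62 ± 0.12 on the log2 scale, from 20.5 and 20.7 CPM to 6.53 and 6.81. MTHFD1L, the mitochondrial formate-producing enzyme, fell by 0.99 ± 0.086, and the cytosolic MTHFD1 fell by 0.97 ± 0.080. The mitochondrial SHMT2 and MTHFD2 fell by 0.72 ± 0.075 and 0.66 ± 0.077.

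Of 16 alcohol dehydrogenases and aldehyde or ketone reductases, which feed or compete with the aldehyde dehydrogenases, 10 were tested after siRNA. None of the 10 was called in edgeR, against 3.41% of all genes. The number at an unadjusted p under 0.05 was 1, DESeq2 called 0, and 1 was called with all 8 libraries in one fit. After shRNA 8 of 12 were higher and 2 lower, or 83.3% called against 60.6% of all genes, with a median of 0.25. AKR1C2 rose by 0.78 ± 0.077, AKR1C3 by 0.51 ± 0.089 and CBR1, a carbonyl reductase, by 0.59 ± 0.076. AKR1C1 had 0.24 ± 0.081, a call lost with library size alone, with all 8 libraries in one fit and without shCON replicate 1, where it was 0.12, 0.23 and 0.15, and ADH5, the formaldehyde-clearing alcohol dehydrogenase, had 0.18 ± 0.074. The call of ADH5 was lost with library size alone, where it was 0.058, with all 8 libraries in one fit and with a replicate block. It was also lost without shCON replicate 1 or shETS1 replicate 1, where ADH5 was at 0.13 and 0.15. The AKR1C genes are near-identical copies, so that reads can be split between them. CBR3 fell by 0.50 ± 0.17, a call lost with DESeq2 and without shCON replicate 2 or shETS1 replicate 2.

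Of 13 oxidative stress genes driven by NRF2, a factor that also acts on some aldehyde dehydrogenase genes, 2 were called after siRNA, both lower, against 3.41% of all genes. SLC7A11, the cystine transporter, had 88.0 and 49.9 CPM in siRNA control against 27.4 and 36.5 with ETS1 siRNA, or -1.11 ± 0.25 on the log2 scale, and HMOX1, haem oxygenase, had -1.05 ± 0.18. Both calls were lost without siRNA control replicate 1, where SLC7A11 was at -0.64 and HMOX1 at -1.06. FTL and FTH1, the ferritin chains, had 0.21 ± 0.12 and 0.38 ± 0.14 and were not called. After shRNA 4 of the 13 were higher and 3 lower, or 53.8% called, below the 60.6% of all genes, with a median of -0.04, and without shCON replicate 1 the number called was 4 in place of 7. SLC7A11 fell by 1.57 ± 0.092 on the log2 scale, from 73.3 and 70.4 CPM to 21.9 and 26.3. GCLC, the catalytic subunit of glutamate-cysteine ligase, rose by 0.47 ± 0.074, whereas its modifier subunit GCLM fell by 0.41 ± 0.076. TXNRD1, thioredoxin reductase, rose by 0.36 ± 0.073, and TXN had 0.06 ± 0.079 and was not called. FTL rose by 0.26 ± 0.085, a call lost with library size alone and without shCON replicate 1.

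**Figure D4:**
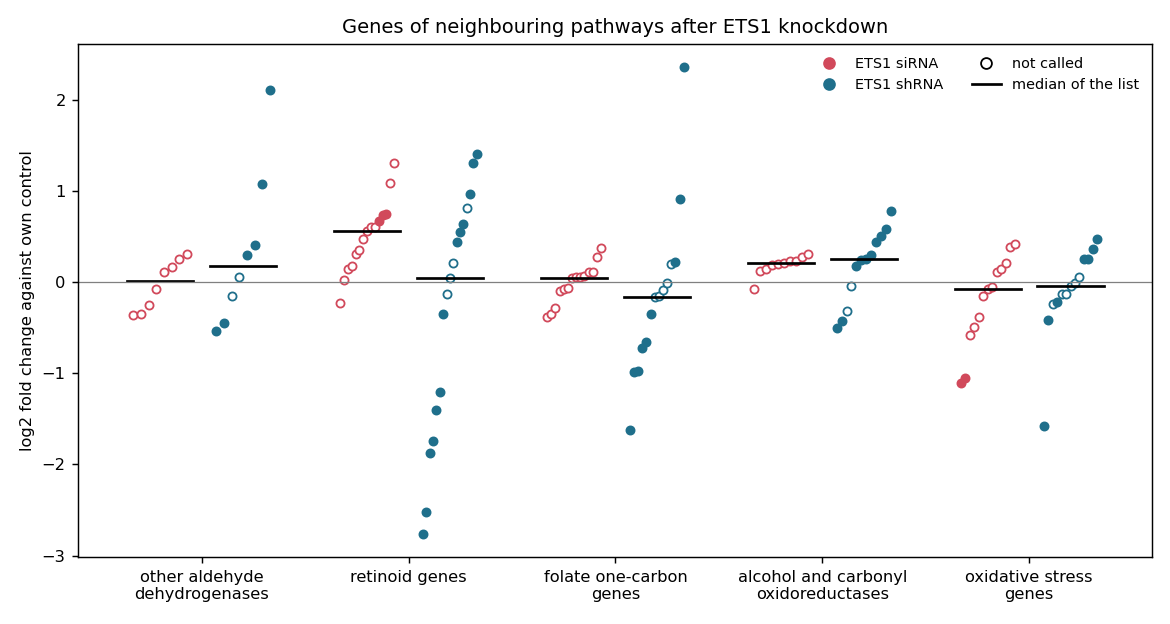
Log2 fold change of every tested gene of the 5 comparison lists against its own control, after siRNA and after shRNA; each point is a gene, filled where called, and black lines are the medians of the lists. After siRNA the filled points are the 3 retinoid genes above 0 and the 2 oxidative stress genes below 0, whereas after shRNA each list holds filled points on both sides of 0.

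The genes whose pattern lay closest to a member were found by the Euclidean distance over the 8 values of log2(CPM + 1), each less the mean of its own control group, among 10044 candidates. For ALDH1A3 they were FGF2 at a distance of 0.36, IL7R at 0.43 and IL1A at 0.48. For ALDH3B1 they were KRT15 at 0.54, KRT19 at 0.60 and FBXO32 at 0.61. For ALDH1L2 they were ADD2 at 0.47, IL7R at 0.53 and GRB10 at 0.57. The values share libraries and controls, and the distances are a description.

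Genes that start within 100 kb of these members did not uniformly follow them. LRRK1, which starts 41.6 kb from ALDH1A3, had 0.04 ± 0.25 after siRNA, which was not called, and fell by 0.71 ± 0.16 on the log2 scale after shRNA. Near ALDH3B1, UNC93B1 starts 3.60 kb away on the opposite strand and had 0.50 ± 0.23 after siRNA, not called, and rose by 0.55 ± 0.11 after shRNA. NDUFS8 had 0.40 ± 0.14 after siRNA, not called, and rose by 0.18 ± 0.082 after shRNA. TCIRG1 had 0.42 ± 0.13 and -0.16 ± 0.10, neither called.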

How the data were processed

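RNA was extracted from 8 samples of SCC25 cells and TruSeq RNA libraries were sequenced. Per the labels and the study's methods, the authors mapped reads to GRCh37 with TopHat2 2.1.1 and Bowtie2 2.2.6 and counted them per gene with featureCounts 1.5.0 (versions from the submitters' processing notes). The use of strand and of reads with several matches is not given in the sources used here, and affects overlapping genes and paralogues. The deposited values are raw counts per gene symbol, one table for each knockdown, without normalization. Of the 56638 symbols, 21266 had no count in any library. All per-sample columns were used.

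For each table, edgeR 4.0.16 in R 4.3.3 compared knockdown and control by its two-sided quasi-likelihood F-test, with TMM scaling, filterByExpr and no covariate. Genes with an adjusted p (Benjamini-Hochberg, over all genes tested) under 0.1 were called. The authors used DESeq2, and DESeq2 1.42.0 was an alternative here. One fit of 8 libraries gave the interaction. An SE is the log2 fold change over the root of F. CPM is the count over the TMM-scaled library size, and RPKM is CPM per kilobase of merged exons. Precision rests on 2 libraries a group and on totals of 15954616 to 25953213 counts. The fits were also run on simulated data with a single value of the spread for all genes. That setting is simpler than these data, so nothing is read from it.

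The members and the lists were chosen with earlier results of these data known. Named are ETS1, the members, the other aldehyde dehydrogenases and, of each list and comparison, up to 4 called genes of largest change, averaging 5 CPM or more, and up to 2 further genes of highest level; some of these are not reported here. The 3 genes of closest pattern to ALDH1A3, ALDH3B1 and ALDH1L2, averaging 5 CPM or more in each table, are named too, as are genes that overlap a member or start within 100 kb of one of these 3 and have a mean of at least 1 CPM. Genes were placed on GENCODE v44 lifted to GRCh37, where 35280 symbols matched 1 gene, and promoter sequences came from RefSeq on GRCh38.p14. Alternatives were other size factors, library size only, other count filters, DESeq2, a replicate block, a stricter threshold, all libraries in one fit, other gene lengths and leaving out each library.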

Additional observations from a re-analysis of the deposited data

Results flagged for a closer look

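Of the 9 members tested for a difference between the knockdowns, 5 passed the test of that difference itself, the shRNA log2 fold change minus the siRNA log2 fold change. It was 2.91 for ALDH1A1, -2.64 for ALDH1L2, -2.21 for ALDH1A3, -0.78 for ALDH7A1 and 0.35 for ALDH3A2, where 34.8% of all genes tested passed. The siRNA side of ALDH1A1 rests on 4 to 7 counts a library. The call of ALDH3A2 was lost with library size alone, with DESeq2 and at an adjusted p under 0.05. The genes were chosen with both contrasts known, so the calls are a description. Kind of knockdown, any difference in preparation and depth of ETS1 loss cannot be told apart in this design.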

How the results depend on the processing

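The siRNA comparison was the less stable. Of its 502 calls over all genes there were 1466 without a filter on low counts, 766 with DESeq2, 190 at an adjusted p under 0.05, 2166 with all 8 libraries in one fit, and between 72 (without siRNA control replicate 1) and 1478 (without ETS1 siRNA replicate 1) when 1 library was left out. Of the 2 called members, between 0 and 2 were called when 1 library was left out, with 0 without siRNA control replicate 1. The 3 retinoid genes called became 8 without a filter, 6 with DESeq2, 1 at 0.05, 9 with all 8 libraries and 0 (without siRNA control replicate 1) to 5 (without siRNA control replicate 2 or ETS1 siRNA replicate 1) with 1 library left out, and the 2 oxidative stress genes became 5, 2, 1, 5 and 0 to 3. With all 8 libraries, 1 other aldehyde dehydrogenase, 2 folate genes and 1 carbonyl or alcohol gene were called after siRNA where none was before.

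Same-numbered replicates deviated oppositely (r = -0.54 over 14742 genes after siRNA and -0.24 over 16481 after shRNA), so the numbers do not pair the samples. With the number as a replicate block 97 genes and 1 member, ALDH3B1, were called after siRNA, no retinoid or oxidative stress gene (0 of each), and 2 carbonyl or alcohol genes in the interaction. With the crossed pairing, added after seeing the data, 3238 genes were called after siRNA, with 9 retinoid, 6 oxidative stress, 3 folate, 1 carbonyl or alcohol and 1 other aldehyde dehydrogenase gene.

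After shRNA the 9988 calls over all genes and the 8 called members stayed within 1.5 times under every alternative, and the oxidative stress count ranged from 4 (without shCON replicate 1) to 8 with 1 library left out. In the interaction, leaving out 1 library gave 1 to 4 carbonyl or alcohol genes (1 without siRNA control replicate 1 or shCON replicate 1, 2 without shCON replicate 2 or shETS1 replicate 2), 2 to 6 oxidative stress genes (6 without ETS1 siRNA replicate 2) and 5 to 10 folate genes (5 without shCON replicate 1). In the main interaction fit, 4 of 12 carbonyl or alcohol genes (33.3%) and 3 of 13 oxidative stress genes (23.1%) were called. Of 14 folate genes 8 were called (57.1%), against 34.8% of all genes tested. The 4 carbonyl or alcohol genes became 2 with at least 10 counts in every library, with DESeq2 and at 0.05. The 3 oxidative stress genes became 5 without a filter. Of 363 fold changes of members under the alternatives, 340 moved by no more than their SE, 23 moved further and 0 of the called ones reversed. The 340 include those at the stricter threshold, which changes only the call and cannot move a fold change. Causes were not tested. At 2 libraries a group, low genes such as ALDH3B2 and ALDH3A1 are limited by depth.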
